A study of Mus musculus with 10 samples.

Results

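The BCL2 family was examined through 10 genes, chosen by symbol from a table of 55291 genes: the anti-apoptotic members Bcl2, Bcl2l1 and Mcl1, the effectors Bax and Bak1, and the BH3-only members Bcl2l11, Bbc3, Pmaip1, Bid and Bad. All 10 were measured in every library and all 10 were among the 20068 genes with enough counts to be tested. Transcripts were sequenced from regulatory T (Treg) cells of Foxp3YFP-cre mice, whose Foxp3 locus drives a fluorescent protein joined to Cre recombinase, so every library, the lymph node ones included, carries this allele. Hepa1-6 libraries (n = 4) came from Treg cells of subcutaneous tumours of Hepa1-6, a mouse hepatoma line, on day 23. E.G7 libraries (n = 2) came from Treg cells of subcutaneous tumours of E.G7, an EL4-derived mouse lymphoma line, on day 21, and LN libraries (n = 4) from Treg cells of lymph nodes in mice without a tumour. Age and sex are not part of the labels used here, and whether replicates were separate animals or pools is not stated. The p-values therefore reflect library-to-library spread, part or all of which may be technical. Tissue, the presence of a tumour and the way the cells were freed from it differ together between tumour and LN libraries and cannot be told apart. Between Hepa1-6 and E.G7 libraries the tumour line and the day, 23 or 21, differ together and cannot be told apart either.

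Mitochondrial apoptosis is set by binding among BCL2 family proteins. The anti-apoptotic proteins BCL2, BCL-xL (from Bcl2l1) and MCL1 hold the effectors BAX and BAK in check, and BH3-only proteins release the effectors by occupying the anti-apoptotic proteins or by engaging the effectors directly. Once active, BAX and BAK open the outer mitochondrial membrane, cytochrome c is released and caspases follow. Treg cells of mice depend on MCL1 for survival, and BIM (from Bcl2l11) limits their number. Transcript counts do not show protein amount, phosphorylation or binding, through which much of this family is controlled, and counts per gene do not separate splice forms such as BCL-xL and BCL-xS.

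Promoter sequence is shown for Bcl2 and Bcl2l1, which moved in opposite directions, and for Bcl2l11, which differed between the tumours. The 250 bases upstream of the RefSeq transcript start (build GRCm38.p6, the assembly of mm10) are given 5′ to 3′ on the gene's strand, at chr1:106714291-106714540 (minus strand) for Bcl2, chr2:152831729-152831978 (minus strand, the most upstream of 3 starts) for Bcl2l1 and chr2:128125788-128126037 (plus strand, the more upstream of 2 starts) for Bcl2l11. Capitals mark matches, on either strand, to the searched letters TTCNNNGAA (STAT), GTAAACA (FOXO), TGANTCA (AP-1) or TGACG (the core letters of a cyclic AMP response element).
Bcl2: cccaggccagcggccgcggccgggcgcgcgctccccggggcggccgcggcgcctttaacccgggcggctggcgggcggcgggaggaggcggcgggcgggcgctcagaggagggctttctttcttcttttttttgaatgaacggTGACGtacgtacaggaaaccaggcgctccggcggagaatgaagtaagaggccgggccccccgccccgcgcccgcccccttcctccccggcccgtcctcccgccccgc
Bcl2l1: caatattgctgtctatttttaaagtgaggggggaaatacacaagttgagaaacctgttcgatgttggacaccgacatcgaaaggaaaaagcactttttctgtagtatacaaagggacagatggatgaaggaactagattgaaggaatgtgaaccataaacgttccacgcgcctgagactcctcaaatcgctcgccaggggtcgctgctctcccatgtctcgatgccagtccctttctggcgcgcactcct
Bcl2l11: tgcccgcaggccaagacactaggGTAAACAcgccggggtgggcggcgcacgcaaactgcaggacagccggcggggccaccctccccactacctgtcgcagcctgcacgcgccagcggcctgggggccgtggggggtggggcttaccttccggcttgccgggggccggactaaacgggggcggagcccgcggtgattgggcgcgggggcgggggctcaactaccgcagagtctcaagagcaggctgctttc
The Bcl2 stretch held 1 match to TGACG, which 17.8% of 32851 such windows over all RefSeq starts also held. The Bcl2l11 stretch held 1 match to GTAAACA, found in 3.17% of windows. The window of the other Bcl2l11 start held 0 matches to these letters, and a window of Bbc3 also held 1. The Bcl2l1 stretch held none of the 4 sets of letters, and TTCNNNGAA and TGANTCA, present in 7.02% and 6.75% of all windows, were in none of the 3 sequences. GC content was 74.8% for Bcl2, 72.0% for Bcl2l11 and 47.6% for Bcl2l1, against a median of 52.4% over all windows. These are matches of letters only.

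Total counts ran from 26224286 to 26665325 in Hepa1-6 libraries, were 26663336 and 26585350 in E.G7 libraries and ran from 22665563 to 24472849 in LN libraries. Foxp3, the factor that defines Treg cells, was at 73.8 to 97.3 CPM in Hepa1-6 libraries, 47.2 and 53.3 CPM in E.G7 and 94.1 to 120 CPM in LN. No unsorted or non-Treg library was available, so these levels cannot show how far sorting enriched Treg cells. CPM stands here for counts scaled by library size and by the TMM factors between libraries. Of 11 Treg markers, 2 were higher and 7 lower in Hepa1-6 and 2 higher and 9 lower in E.G7 than in LN, Foxp3 among the lower ones in both. Genes of other cell types were also present. Macrophage and neutrophil markers summed to 3828 to 4125 CPM in Hepa1-6 libraries, 738 and 769 CPM in E.G7 and 25.1 to 36.9 CPM in LN, with all 14 of 14 higher in both tumour groups and S100a9 at 0 in every LN library. Dendritic cell and MHC class II markers (10 of 10 higher in both tumour groups, Batf3 at 0 in LN) summed to 9484 to 9861 CPM in Hepa1-6 libraries, 1698 and 1763 CPM in E.G7 and 149 to 171 CPM in LN. Hepatoma markers, of which 9 of 15 had enough counts to be tested, summed to 3366 to 3482 CPM in Hepa1-6 libraries, 239 and 259 CPM in E.G7 and 30.6 to 37.3 CPM in LN. The E.G7 sum was mostly Apoe (128 CPM) and Trf (115 CPM), while Alb averaged 370.4 CPM in Hepa1-6, 0.055 CPM in E.G7 and 0.039 CPM in LN, and Krt8 463 CPM in Hepa1-6, 0.13 CPM in E.G7 and 0.019 CPM in LN. Markers of immature thymocytes and EL4 cells summed to 192 to 203 CPM in Hepa1-6 libraries, 219 and 228 CPM in E.G7 and 20.1 to 21.3 CPM in LN, and Rag1 was at 0 throughout. In Hepa1-6 libraries that sum was mostly Cd8a (130 CPM) and Cd8b1 (66.5 CPM), which are also CD8 T cell markers. Trap1a averaged 0.052 CPM in Hepa1-6, 127 CPM in E.G7 and 0.049 CPM in LN, and Dntt 2.84 CPM in Hepa1-6, 46.6 CPM in E.G7 and 2.30 CPM in LN. CD8 T and NK cell markers summed to 516 to 556 CPM in Hepa1-6 libraries, 145 and 146 CPM in E.G7 and 29.8 to 34.4 CPM in LN, stromal and endothelial markers to 1209 to 1312, 312 and 316, and 329 to 346 CPM in the same order of groups, and B cell markers to 379 to 451, 637 and 643, and 837 to 952 CPM. The stromal sum in LN was mostly Pecam1 (228 CPM) and Thy1 (105 CPM). Of the 12 stromal and endothelial genes, 9 were higher and 2 lower in Hepa1-6 and 10 higher and 1 lower in E.G7 than in LN, with Fn1 at 878 CPM in Hepa1-6, 31.7 CPM in E.G7 and 0.35 CPM in LN. Pan T cell genes summed to 6317 to 6539 CPM in Hepa1-6 libraries, 6152 and 6254 CPM in E.G7 and 7283 to 7865 CPM in LN. The part of these other transcripts in the results below was not tested, and since the libraries are bulk samples, fewer cells expressing a gene and less RNA of it per cell cannot be told apart.

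**Figure D1:**
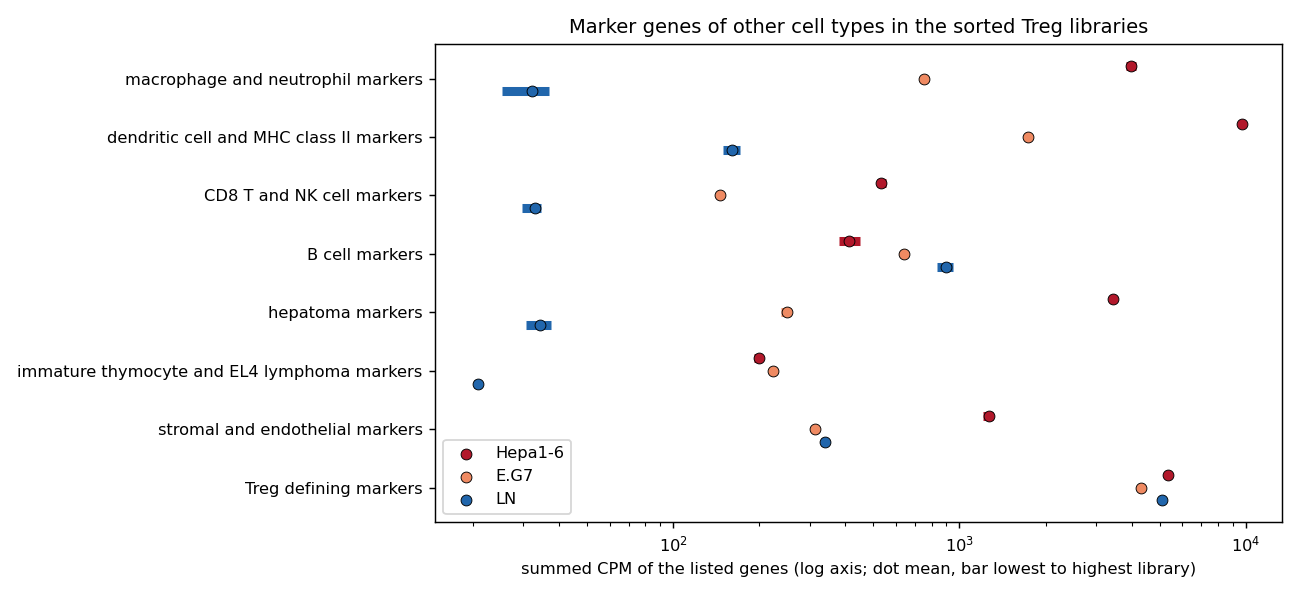
Summed CPM of marker genes (x axis, log scale) for 8 lists of cell type markers (y axis) in Hepa1-6 (n = 4), E.G7 (n = 2) and LN (n = 4) libraries; dots are means and bars span the lowest to the highest library. The macrophage and neutrophil list sits at 3828 to 4125 CPM in Hepa1-6 and 25.1 to 36.9 CPM in LN, while the sum of the Treg list differs far less between groups. Single Treg genes moved both ways, with 2 of 11 higher and 7 lower in Hepa1-6 and 2 higher and 9 lower in E.G7 than in LN.

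Of the 10 members, 6 were higher and 1 was lower in Hepa1-6 than in LN libraries at an adjusted p under 0.05 (edgeR quasi-likelihood test, Benjamini-Hochberg adjustment over all genes). The background was high, with 37.0% of the 20068 genes higher and 31.1% lower. In E.G7 against LN libraries 6 members were higher and 3 lower, where 32.7% of all genes were higher and 27.2% lower. Between the tumours, 4 members were higher and 3 lower in Hepa1-6 than in E.G7, against 26.1% and 19.6% of all genes. The median log2 fold change of the members was 0.65 in Hepa1-6 against LN (0.04 over all genes), 0.73 in E.G7 against LN (0.01) and 0.25 in Hepa1-6 against E.G7 (0.06). The 2 contrasts with LN share the LN libraries. Scaling to pan T cell genes moved the median of all genes to 0.28 in Hepa1-6 and 0.30 in E.G7 against LN, with 9112 genes higher and 4314 lower in Hepa1-6 and 8420 higher and 3650 lower in E.G7, in place of 7419 and 6237, and 6554 and 5459. Under that scaling 8 members were higher and 1 lower in Hepa1-6, and 7 higher and 2 lower in E.G7.

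**Figure D2:**
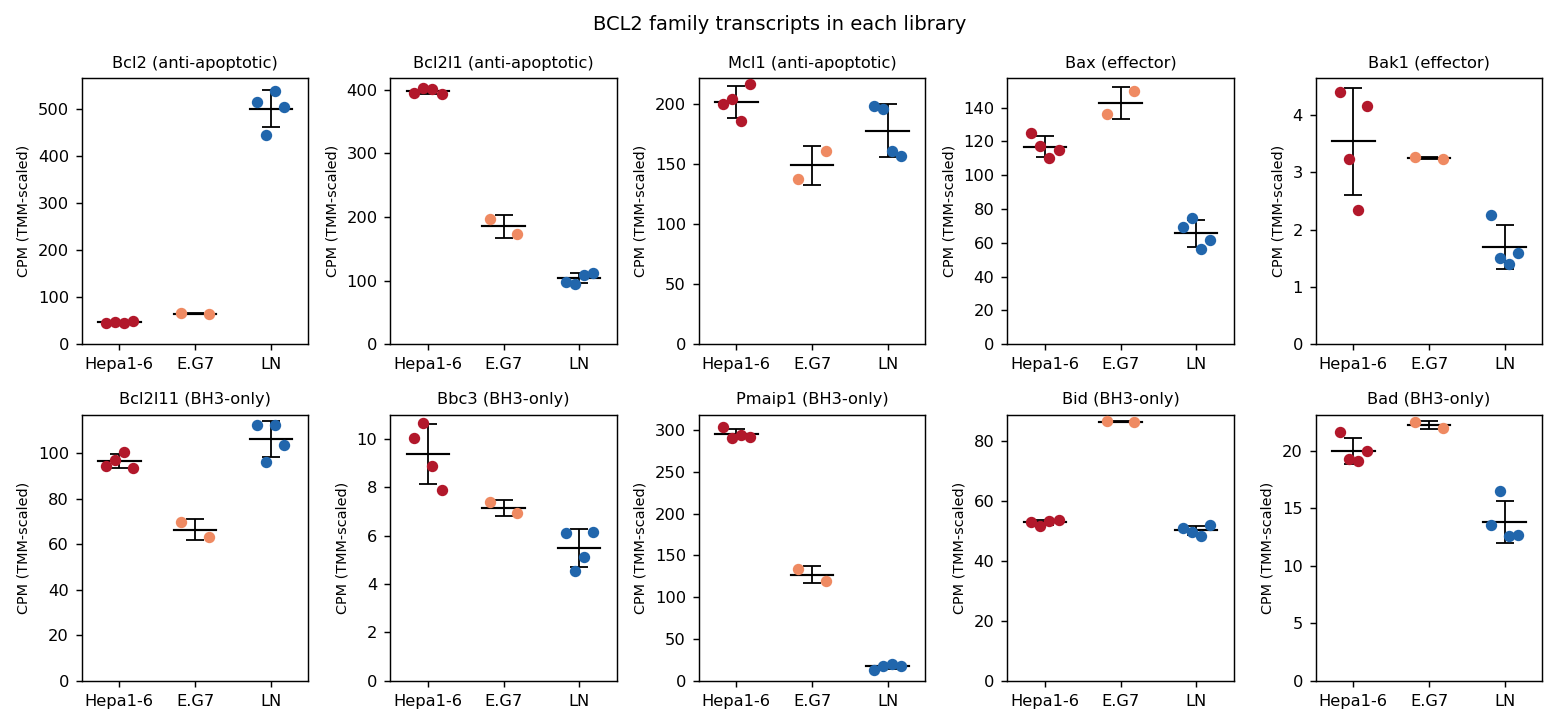
Level of each of the 10 members (y axis, TMM-scaled CPM from 0) in Hepa1-6, E.G7 and LN libraries (x axis); points are libraries, the horizontal line is the mean and the bar 1 SD. Bcl2 sits at 44.4 to 65.6 CPM in the tumour libraries and 444 to 537 CPM in LN libraries, while Bcl2l1 and Pmaip1 run the other way.

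Bcl2, the founding anti-apoptotic gene (mm10 chromosome 1, 106538178 to 106714274, minus strand), was the member with the largest drop. It read 46.0, 47.8, 44.4 and 48.6 CPM in the 4 Hepa1-6 libraries, 65.6 and 63.6 CPM in the 2 E.G7 libraries, and 514, 444, 537 and 504 CPM in the 4 LN libraries. The lowest LN library therefore stood far above the highest tumour library, and the groups did not overlap. Bcl2 was 10.7 times lower in Hepa1-6 than in LN (log2 fold change -3.42, SE 0.064, edgeR adjusted p = 2.34e-16) and 7.73 times lower in E.G7 than in LN (-2.95, SE 0.084, edgeR adjusted p = 1.25e-13). Only 217 of 20068 genes (1.08%) fell further than Bcl2 in Hepa1-6 and 331 (1.65%) in E.G7. Hepa1-6 libraries were in turn 1.38 times lower than E.G7 (log2 fold change -0.47, SE 0.073, edgeR adjusted p = 6.63e-05). When libraries were scaled to the pan T cell genes summed above, the log2 fold change of Bcl2 was -3.18 in Hepa1-6 and -2.67 in E.G7 against LN. Exons of Bcl2 overlap those of D630008O14Rik on the other strand. That gene had 3 to 31 reads in Hepa1-6, 35 and 25 in E.G7 and 135 to 221 in LN, beside 1077 to 13369 reads of Bcl2. With the strand setting not given, the level of Bcl2 is uncertain where the 2 genes overlap.

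Bcl2l1, which encodes BCL-xL (chromosome 2, 152780668 to 152831728, minus strand), moved the opposite way. The 4 Hepa1-6 libraries read 394, 402, 401 and 393 CPM, the 2 E.G7 libraries 197 and 173 CPM, and the 4 LN libraries 98.0, 95.4, 109 and 111 CPM. Each group lay apart from the others, in the order Hepa1-6, E.G7, LN. Bcl2l1 rose 3.84-fold in Hepa1-6 against LN (log2 fold change 1.94, SE 0.061, edgeR adjusted p = 1.21e-13), 1.79-fold in E.G7 against LN (0.84, SE 0.071, edgeR adjusted p = 5.07e-08) and 2.15-fold in Hepa1-6 against E.G7 (1.10, SE 0.076, edgeR adjusted p = 7.99e-09). Of all genes, 17% in Hepa1-6 and 24.8% in E.G7 had a larger log2 fold change against LN, and 16.4% in Hepa1-6 against E.G7. The macrophage and dendritic cell marker sums above were ordered the same way across the 3 groups.

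Mcl1, the gene of the short-lived protein MCL1 (chromosome 3, 95658788 to 95663176, plus strand), changed little. It read 200, 204, 186 and 217 CPM in Hepa1-6 libraries, 137 and 161 CPM in E.G7 and 198, 196, 161 and 157 CPM in LN. Hepa1-6 and LN libraries overlapped (log2 fold change 0.18, SE 0.083, edgeR adjusted p = 0.0659), and so did E.G7 and LN libraries although the fit called E.G7 lower (-0.26, SE 0.10, edgeR adjusted p = 0.0435). That call was lost in 10 of 22 alternatives and turned round in 1 (adjusted p 0.00494 to 0.808 over them). It was lost without E.G7 replicate 1 (adjusted p 0.399), LN replicate 1 (0.0957) or 2 (0.0870), or Hepa1-6 replicate 1 (0.0506) or 2 (0.0572). Hepa1-6 exceeded E.G7 by 0.44 on the log2 scale without overlap (SE 0.104, edgeR adjusted p = 0.00274).

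Levels per kilobase of exon let the 3 anti-apoptotic genes be set beside each other. On that scale, CPM per kilobase of the summed exon length, their total was 151 ± 3.498 in Hepa1-6, 91.0 ± 0.88 in E.G7 and 129 ± 4.605 in LN (SD, n = 4, 2 and 4). Bcl2 made up 3.38% ± 0.06 of it in Hepa1-6, 7.75% ± 0.24 in E.G7 and 42.2% ± 3.06 in LN. Bcl2l1 supplied 57.5% ± 1.71 in Hepa1-6, 44.4% ± 4.61 in E.G7 and 17.5% ± 1.69 in LN, while Mcl1 kept 39.1% ± 1.66, 47.9% ± 4.86 and 40.3% ± 4.45 in Hepa1-6, E.G7 and LN. The level of Bcl2 over that of Bcl2l1 was 0.0588 ± 0.0027 in Hepa1-6, 0.175 ± 0.013 in E.G7 and 2.42 ± 0.16 in LN, so Bcl2l1 was above Bcl2 in tumour libraries and below it in LN libraries. These shares and ratios are formed within a library and do not depend on how libraries are scaled to each other. The exon length of Bcl2, 9157 bases over all its annotated exons, is larger than any single transcript need be, which lowers its per-kilobase level in every group alike.

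**Figure D3:**
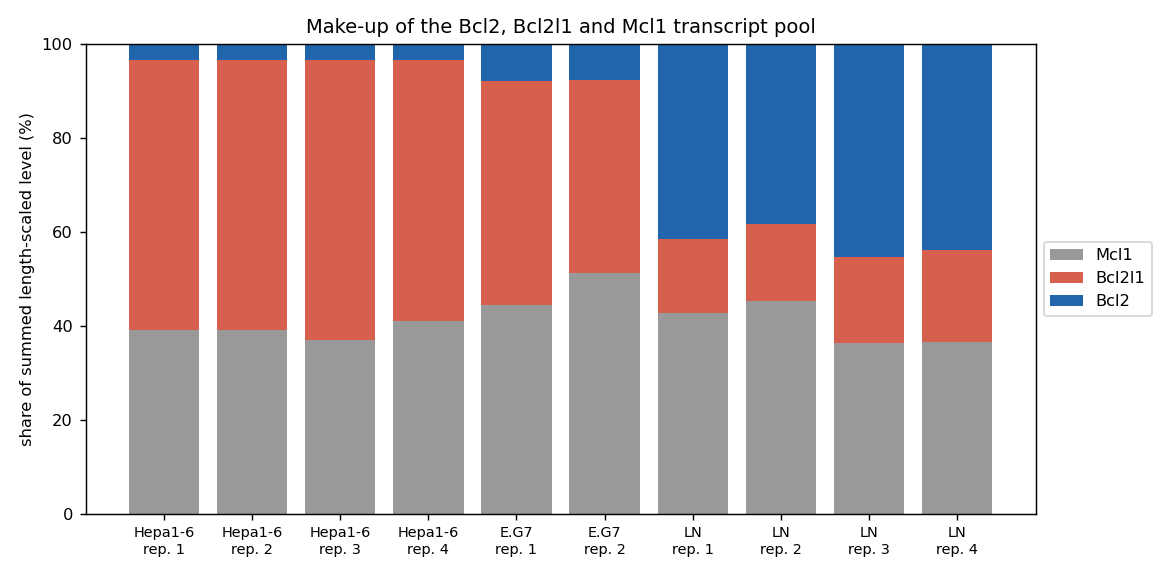
Share of the summed per-kilobase level (y axis, percent) held by Mcl1, Bcl2l1 and Bcl2 in each library (x axis; 4 Hepa1-6, 2 E.G7, 4 LN). Bcl2 takes 3.31% to 3.44% in Hepa1-6 libraries and 38.3% to 45.3% in LN libraries, and Mcl1 takes 36.4% to 51.3% in all 10.

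Both effectors were higher in tumour libraries. Bax (chromosome 7, 45461697 to 45466898, minus strand) read 125, 117, 110 and 115 CPM in Hepa1-6 libraries, 136 and 150 CPM in E.G7, and 69.6, 74.7, 56.5 and 61.8 CPM in LN, with no LN library reaching any tumour library. It rose 1.78-fold in Hepa1-6 (log2 fold change 0.83, SE 0.080, edgeR adjusted p = 1.38e-07) and 2.18-fold in E.G7 (1.12, SE 0.094, edgeR adjusted p = 4.21e-08) against LN. Hepa1-6 was lower than E.G7 by 1.22 times (log2 fold change -0.29, edgeR adjusted p = 0.0205), a call that ended without Hepa1-6 replicate 3 (0.0532) or E.G7 replicate 2 (0.195), within a range of 0.00104 to 0.195 over its alternatives. Exons of Bak1 (chromosome 17, 27019810 to 27029009, minus strand) overlap those of Ggnbp1 on the other strand. Ggnbp1 had 4 to 18 reads in Hepa1-6, 8 and 12 in E.G7 and 10 to 29 in LN, so the level of Bak1 is uncertain where they overlap. Bak1 was scarce, with 35 to 108 reads in any library, at 4.41, 3.23, 2.35 and 4.17 CPM in Hepa1-6 libraries, 3.27 and 3.24 CPM in E.G7 and 2.25, 1.504, 1.41 and 1.59 CPM in LN. It rose 2.09-fold in Hepa1-6 (log2 fold change 1.07, SE 0.24, edgeR adjusted p = 0.0011) and 1.92-fold in E.G7 (0.94, SE 0.29, edgeR adjusted p = 0.0100) against LN. The E.G7 call was at an adjusted p of 0.0528 without E.G7 replicate 1 and 0.0515 without replicate 2, in a range of 0.00165 to 0.0528 over its alternatives. Per kilobase, Bax supplied 98.1% ± 0.44 of the effector sum in Hepa1-6, 98.5% ± 0.11 in E.G7 and 98.3% ± 0.32 in LN. With Bak1 this scarce, such shares can hardly show a shift between the 2 effectors. The level of Bax over that of Bak1 was 53.2 ± 13.7 in Hepa1-6, 67.1 ± 4.93 in E.G7 and 60.9 ± 11.8 in LN, and the groups overlapped.

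Pmaip1, which encodes NOXA, a BH3-only protein that binds MCL1 (chromosome 18, 66458533 to 66465565, plus strand), showed the largest rise of the 10 members in both contrasts with LN. It read 303, 290, 294 and 292 CPM in Hepa1-6 libraries, 134 and 120 CPM in E.G7 and 13.6, 18.4, 20.003 and 17.6 CPM in LN. The groups were far apart in the order Hepa1-6, E.G7, LN. Pmaip1 rose 17.0-fold in Hepa1-6 against LN (log2 fold change 4.08, SE 0.095, edgeR adjusted p = 6.32e-15), 7.29-fold in E.G7 against LN (2.87, SE 0.10, edgeR adjusted p = 2.79e-12) and 2.33-fold in Hepa1-6 against E.G7 (1.22, SE 0.105, edgeR adjusted p = 1.54e-07). A total of 10% of all genes in Hepa1-6 and 8.88% in E.G7 had a larger log2 fold change against LN. Macrophage and neutrophil marker sums followed the same order of groups, at 3828 to 4125 CPM in Hepa1-6 libraries, 738 and 769 CPM in E.G7 and 25.1 to 36.9 CPM in LN.

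Bcl2l11, the gene of BIM (chromosome 2, 128126038 to 128162547, plus strand), split the tumours. It read 94.4, 97.1, 100.4 and 93.7 CPM in Hepa1-6 libraries, 69.7 and 63.2 CPM in E.G7 and 112, 96.3, 113 and 104 CPM in LN. E.G7 libraries lay below all others, and Hepa1-6 libraries overlapped LN. Bcl2l11 was lower in E.G7 than in LN (log2 fold change -0.68, SE 0.080, edgeR adjusted p = 2.45e-06) and higher in Hepa1-6 than in E.G7 (0.54, SE 0.080, edgeR adjusted p = 4.16e-05). In Hepa1-6 against LN the difference was -0.14 (SE 0.063, edgeR adjusted p = 0.0606), which passed the threshold in 8 of 22 alternatives (adjusted p 0.000372 to 0.280 over all of them), without LN replicate 2 among them, and turned positive with scaling to pan T cell genes. Foxo1, a factor known to act on this gene, read 49.0 CPM in Hepa1-6, 73.1 CPM in E.G7 and 113 CPM in LN on average, and was 2.30 times lower in Hepa1-6 (edgeR adjusted p = 5.00e-10) and 1.54 times lower in E.G7 (edgeR adjusted p = 1.90e-05) than in LN. The other FOXO genes examined had no call in any comparison. Foxo3 averaged 35.1 CPM in Hepa1-6, 32.6 CPM in E.G7 and 32.2 CPM in LN. Foxo4 averaged 5.45, 5.99 and 5.68 CPM in the same order of groups. The part of FOXO factors in the level of Bcl2l11 was not tested.

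Bid, whose protein is cut by caspase 8 to carry a death receptor signal to mitochondria (chromosome 6, 120891930 to 120916853, minus strand), was highest in E.G7. It read 53.1, 51.6, 53.2 and 53.6 CPM in Hepa1-6 libraries, 86.7 and 86.4 CPM in E.G7 and 51.0, 49.5, 48.5 and 52.1 CPM in LN. Bid was 1.72-fold higher in E.G7 than in LN (log2 fold change 0.78, SE 0.068, edgeR adjusted p = 6.67e-08) and lower in Hepa1-6 than in E.G7 (-0.71, SE 0.068, edgeR adjusted p = 3.56e-07), while Hepa1-6 and LN overlapped (0.07, edgeR adjusted p = 0.274). Scaling to pan T cell genes put Hepa1-6 above LN (0.31), and its adjusted p ran from 0.000243 to 0.863 over its alternatives. Bcl2l13 overlaps Bid on the opposite strand, and with the strand setting not given reads of the 2 genes cannot be told apart where they overlap. Bcl2l13 had 1706 to 1991 reads in Hepa1-6, 2579 and 2527 in E.G7 and 1172 to 1441 in LN, so it too was highest in E.G7.

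Bad, the BH3-only gene whose protein is held inactive by survival kinases and 14-3-3 proteins (chromosome 19, 6941861 to 6951899, plus strand), read 21.6, 19.3, 19.1 and 19.97 CPM in Hepa1-6 libraries, 22.5 and 22.006 CPM in E.G7 and 13.5, 16.5, 12.6 and 12.7 CPM in LN. No LN library reached a tumour library. It was 1.45-fold higher in Hepa1-6 (log2 fold change 0.53, SE 0.108, edgeR adjusted p = 0.000414) and 1.61-fold higher in E.G7 (0.68, SE 0.13, edgeR adjusted p = 0.000252) than in LN. Gpr137 overlaps Bad on the opposite strand and had 282 to 312 reads in Hepa1-6, 373 and 358 in E.G7 and 195 to 237 in LN, beside 463 to 530, 605 and 598, and 314 to 428 reads of Bad. The level of Bad is therefore uncertain where the 2 genes overlap. Bbc3, which encodes PUMA (chromosome 7, 16308393 to 16318205, plus strand), had 118 to 258 reads a library and read 10.05, 10.7, 8.87 and 7.88 CPM in Hepa1-6 libraries, 7.39 and 6.92 CPM in E.G7 and 6.13, 4.55, 5.10 and 6.14 CPM in LN. It rose 1.71-fold in Hepa1-6 against LN (log2 fold change 0.77, SE 0.153, edgeR adjusted p = 0.000327), and in E.G7 stood at 0.38 (SE 0.19, edgeR adjusted p = 0.0852), which did not pass. Neither gene differed past the threshold between tumours (Bad -0.15, edgeR adjusted p = 0.365, and Bbc3 0.39, edgeR adjusted p = 0.104), although Bbc3 passed with limma on log2 of FPKM plus 1, with a filter (adjusted p = 0.0363) and without (0.0413), in a range of 0.0363 to 0.350 over its alternatives.

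**Figure D4:**
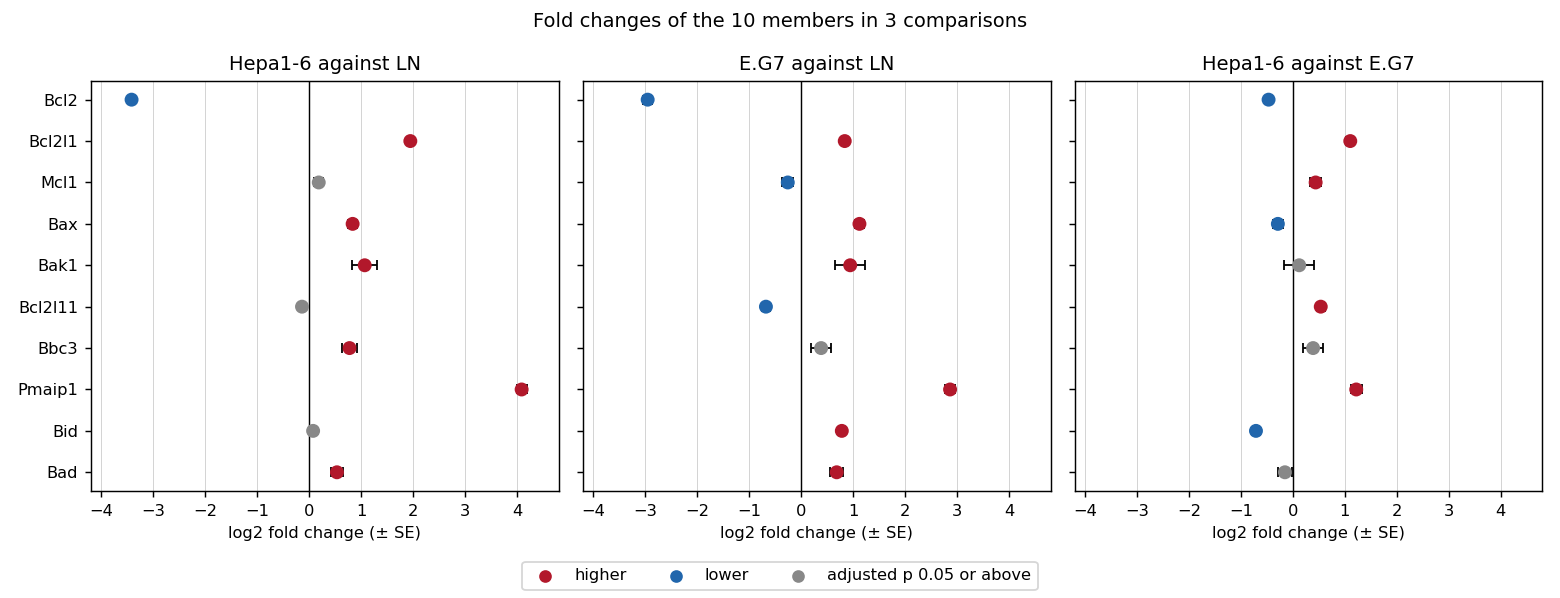
Log2 fold change with its SE (x axis) of the 10 members (y axis) in Hepa1-6 against LN, E.G7 against LN and Hepa1-6 against E.G7, from one edgeR fit on 10 libraries; red marks higher, blue lower and grey no call. Bcl2 at -3.42 and -2.95 and Pmaip1 at 4.08 and 2.87 lie outside the other members in the contrasts with LN.

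Summed per kilobase, the BH3-only genes reached 147 ± 2.62 in Hepa1-6, 91.1 ± 4.61 in E.G7 and 41.8 ± 0.46 in LN. Pmaip1 supplied 73.4% ± 0.26 of this in Hepa1-6, 50.9% ± 1.46 in E.G7 and 15.2% ± 2.31 in LN, and Bid and Bcl2l11, with 33.9% and 31.7%, led in LN. The level of Pmaip1 over that of Mcl1 was 1.83 ± 0.13 in Hepa1-6, 1.07 ± 0.20 in E.G7 and 0.125 ± 0.030 in LN. Bcl2l11 over Bcl2 was 2.36 ± 0.16 in Hepa1-6, 1.17 ± 0.06 in E.G7 and 0.243 ± 0.007 in LN, and Bax over Bcl2 was 14.6 ± 0.87, 12.9 ± 1.14 and 0.772 ± 0.155 in Hepa1-6, E.G7 and LN. In all 3 ratios every tumour library lay above every LN library. The ratios describe transcripts and not bound protein.

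Other BCL2 family genes were mostly higher in Hepa1-6. Of 13 tested, 9 were higher and 1 lower in Hepa1-6 against LN (37.0% and 31.1% of all genes), 5 and 2 in E.G7 against LN (32.7% and 27.2%), and 7 and 2 in Hepa1-6 against E.G7 (26.1% and 19.6%). The E.G7 counts against LN are near the shares over all genes. Bnip3, a hypoxia-induced mitophagy gene, averaged 192 CPM in Hepa1-6, 42.0 CPM in E.G7 and 7.33 CPM in LN (26.2-fold and 5.73-fold over LN, edgeR adjusted p = 3.03e-17 and 4.80e-13). Bcl2a1d, of the anti-apoptotic A1 group whose copies are near-identical and whose counts are therefore uncertain, averaged 132 CPM in Hepa1-6, 80.5 CPM in E.G7 and 19.1 CPM in LN. A1 genes are also expressed by myeloid cells, whose marker sums are given above.

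Downstream genes were mixed, and their counts are to be read against the same shares of all genes: 37.0% higher and 31.1% lower in Hepa1-6 against LN, 32.7% and 27.2% in E.G7 against LN, and 26.1% and 19.6% in Hepa1-6 against E.G7. Of 12 apoptosome and caspase genes, 6 were higher and 4 lower against LN in each tumour (1 lower in each with scaling to pan T cell genes). That scaling called fewer genes lower in the whole set as well, 4314 of 20068 in Hepa1-6 and 3650 in E.G7 against LN. Cycs, for cytochrome c, rose 2.13-fold in Hepa1-6 and 3.32-fold in E.G7 against LN (edgeR adjusted p = 5.76e-08 and 2.51e-09), and Apaf1, the apoptosome scaffold, 2.93-fold in Hepa1-6 and 2.07-fold in E.G7. Inhibitor of apoptosis genes split into 3 higher and 3 lower of 7 in Hepa1-6 and 2 and 3 in E.G7, with Birc5 (survivin, a gene of dividing cells) at 4.34-fold and 8.59-fold and Birc6 at 1.52 and 1.47 times lower in Hepa1-6 and E.G7 than in LN. The death receptor list had 8 higher and 4 lower of 14 in Hepa1-6 against LN, 4 and 8 in E.G7 against LN (5 lower with pan T cell scaling), and 9 and 1 in Hepa1-6 against E.G7. Cflar, the caspase 8 inhibitor, averaged 225 CPM in Hepa1-6 against 116 CPM in E.G7, a 1.95-fold difference (edgeR adjusted p = 1.03e-08).

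Upstream inputs were read from 4 lists. Of 17 p53 genes, 10 were higher and 5 lower in Hepa1-6 and 11 and 5 in E.G7 against LN (7 higher in E.G7 with upper-quartile scaling). Cdkn1a, the p53-induced cell cycle inhibitor, averaged 455 CPM in Hepa1-6, 146 CPM in E.G7 and 4.31 CPM in LN, 105-fold and 33.9-fold over LN, while Sesn1, also a p53 target, was 3.51 times lower in Hepa1-6 than in LN. Of 13 IL-2 and IL-7 signalling genes, 4 were higher and 4 lower in Hepa1-6 against LN, 1 and 8 in E.G7 against LN and 9 and 1 in Hepa1-6 against E.G7. The first of these became 8 higher with pan T cell scaling and 8 lower with upper-quartile scaling, and the second 6 higher and 5 lower with pan T cell scaling. Il2ra, the IL-2 receptor alpha chain, averaged 607 CPM in Hepa1-6, 284 CPM in E.G7 and 585 CPM in LN, and was 2.06 times lower in E.G7 than in LN (edgeR adjusted p = 6.26e-10). Il7r was 1.75 times lower in E.G7 than in LN. Of 13 FOXO and kinase genes, 6 were higher and 3 lower in Hepa1-6 and 3 and 1 in E.G7 (9 higher with pan T cell scaling). Of 10 genes of MCL1 turnover and mitochondrial channels, 7 were higher and 2 lower in Hepa1-6 and 6 and 2 in E.G7, with the channel gene Vdac1 2.39-fold and 2.92-fold over LN. For these lists too, 37.0% of all genes were higher and 31.1% lower in Hepa1-6 against LN, 32.7% and 27.2% in E.G7 against LN, and 26.1% and 19.6% in Hepa1-6 against E.G7. Those shares belong to the TMM-scaled fit. Pan T cell scaling called 9112 of 20068 genes higher and 4314 lower in Hepa1-6 against LN, and 8420 and 3650 in E.G7 against LN. Upper-quartile scaling called 6356 higher and 7754 lower in Hepa1-6 against LN, and 5857 and 6266 in E.G7 against LN.

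Over the 10 libraries and 8995 genes averaging at least 10 CPM, the genes whose log2 CPM followed Bcl2 most closely were Trim12a (Pearson r 0.998), Prkcq (0.998) and Wdr33 (0.997). Prkcq averaged 133 ± 1.10 CPM in Hepa1-6, 149 ± 14.2 CPM in E.G7 and 536 ± 18.6 CPM in LN. Bcl2l1 was followed most closely by Etv6, Rbpj and Slc48a1 (0.998 each), with Rbpj at 345 ± 5.21 CPM in Hepa1-6, 135 ± 9.57 CPM in E.G7 and 57.6 ± 3.56 CPM in LN (SD, n = 4, 2 and 4). Named after their values were seen, the genes closest to Pmaip1 were Cx3cr1, Il1b and Lyn (0.999 each). With 3 groups and 10 libraries, any gene with the same order and spacing of group means gives a high r. Among the members, Bcl2 and Pmaip1 ran most oppositely (r -0.987) and Bcl2l11 and Bid next (-0.95), again across libraries that share the 3 group means.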

How the data were processed

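RNA was extracted with TRIzol and sequenced at BGI on a BGISEQ-500, per the labels' protocols. Raw read counts per gene, deposited as whole numbers with exon coordinates, have the layout of featureCounts per the file headers; the deposited FPKM values equal these counts divided by gene length and a constant per library. The submitters' processing notes name HISAT2, featureCounts, Subread, RSEM, DESeq2 and mm10; versions, annotation and strand setting are not given in the sources used here. Groups came from sample titles; 0 per-sample columns were left unused.

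Counts were filtered with filterByExpr, TMM-scaled and fitted in one edgeR 4.0.16 quasi-likelihood model over 10 libraries (R 4.3.3), with Benjamini-Hochberg adjustment over all genes and a threshold of 0.05. SE is the log2 fold change over the square root of F. The model was tested on simulated data. Alternatives were DESeq2 1.42.0, limma 3.58.1 (voom, and log2 of FPKM plus 1 or 0.1), other scalings (RLE, upper-quartile, pan T cell genes), other filters (none, or 10 CPM), fits restricted to each pair of groups, a block on replicate number, and leaving out each library. Replicates differed by more than sampling noise in all 13 pairs. Members and lists were chosen with earlier results of these data known. Foxo3 and Foxo4 were named in addition, beside Foxo1. Named genes were all members, up to 3 genes per pathway list and comparison with the smallest adjusted p at 5 CPM or more, and the 3 genes most like Bcl2 and Bcl2l1. A gene selected this way is not reported here. A window of 250 bases upstream of RefSeq starts was available for 9 members.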

Additional observations from a re-analysis of the deposited data

Results flagged for a closer look

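For 7 of the 10 members the change against LN differed between the tumours, by the direct test of Hepa1-6 against E.G7 libraries (edgeR, adjusted p under 0.05), where 45.6% of all genes were called. The log2 difference, Hepa1-6 minus E.G7, was 1.22 for Pmaip1, 1.10 for Bcl2l1, 0.536 for Bcl2l11 and 0.438 for Mcl1. It was -0.710 for Bid, -0.468 for Bcl2 and -0.289 for Bax. The Mcl1 call was lost without E.G7 replicate 1 (adjusted p 0.0725), and the Bax call without Hepa1-6 replicate 3 (0.0532) or E.G7 replicate 2 (0.195); over all alternatives the adjusted p ran from 0.000469 to 0.0725 for Mcl1 and from 0.00104 to 0.195 for Bax. Bcl2l11 and Bid divide the tumours in opposite directions: Bcl2l11 averaged 96.4 CPM in Hepa1-6, 66.5 CPM in E.G7 and 106 CPM in LN, and Bid 52.9 CPM in Hepa1-6, 86.5 CPM in E.G7 and 50.3 CPM in LN. Foxp3 differed as well, at 73.8 to 97.3 CPM in Hepa1-6 against 47.2 and 53.3 CPM in E.G7, and its part in these differences was not tested. No library stood outside its group by Dixon's criterion in the 4-library groups.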

How the results depend on the processing

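Of 654 refits of a member in a comparison, 614 kept direction and side of the threshold, and 20 of 30 member-by-comparison results kept both under every alternative, among them all 3 results each for Bcl2, Bcl2l1 and Pmaip1. The Bcl2 log2 fold change ran from -3.60 to -3.18 in Hepa1-6 and from -3.07 to -2.67 in E.G7 against LN, and that of Pmaip1 from 3.88 to 4.32 and from 2.67 to 3.16. The count of members lower in Hepa1-6 than in LN was 2 in place of 1, through Bcl2l11, with upper-quartile scaling, no filter, a 10 CPM filter, each FPKM fit and the fit of only those groups, and 1 to 2 when a library was left out. Directions turned for Bid in Hepa1-6 against LN with upper-quartile scaling (-0.108), for Bcl2l11 in Hepa1-6 against LN (0.096) and Mcl1 in E.G7 against LN (0.033) with pan T cell scaling, and for Bak1 in Hepa1-6 against E.G7 when a library was left out (-0.0008971 to 0.275, the first without Hepa1-6 replicate 1); the cause was not tested. Mcl1 in Hepa1-6 against LN passed the threshold in 7 of 22 alternatives (adjusted p 0.000369 to 0.993 over them), among them without LN replicate 1 (0.0247) or 2 (0.0358) and without Hepa1-6 replicate 3 (0.0422), and without E.G7 replicate 1 Mcl1 no longer differed past it between tumours (0.0725; range 0.000469 to 0.0725). Bbc3 passed on log2 FPKM plus 1 or with pan T cell scaling in E.G7 against LN (range 0.00593 to 0.277). Fewer genes were tested, and called, with a 10 CPM filter (8366 in Hepa1-6 and 7925 in E.G7 against LN) and on FPKM (8871 with a pseudocount of 1, 8841 with 0.1, in Hepa1-6 against LN), in place of 13656 and 12013; that filter removed Bak1 and Bbc3. Deviations from the group means gave r -0.199 to 0.142 for samples of different groups sharing a replicate number. Samples with different numbers gave r -0.172 to 0.199. The E.G7 deviations, from 2 libraries, mirror each other, so these values cannot decide whether the numbers pair samples. With a replicate block 13390, 11099 and 8369 genes were called in Hepa1-6 against LN, E.G7 against LN and Hepa1-6 against E.G7. In the same order 7, 6 and 4 members were higher and 1, 3 and 2 lower. Of all 20068 genes, 7325, 6170 and 4900 were higher and 6065, 4929 and 3469 lower with that block. Bax then no longer differed between tumours (-0.19). Pathway list counts stayed within 1.5 times in 995 of 1056 refits. Shares within the anti-apoptotic, effector and BH3-only sums were the same from deposited FPKM. This had to be so, since FPKM came from the same counts and gene lengths, and it is no separate check. Of 90 such values from FPKM or from the lowest or highest library in place of the mean, 27 lay more than 1 SD from it. All of these were a lowest or highest library. In E.G7, with 2 libraries, the lowest and highest always lie within 1 SD of the mean. Precision is lowest for Bak1, with 35 to 108 reads a library, and for E.G7, with 2 libraries.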
